A study of Homo sapiens with 4 samples.

Results

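Mitotic kinases and regulators were taken as 10 named genes. They are the kinases AURKA, AURKB, PLK1 and CDK1, the checkpoint proteins BUB1 and BUB1B and the cyclins CCNB1 and CCNB2. The activator CDC20 and the passenger protein BIRC5 complete the set. The members were found by gene symbol in 4 ribosome profiling tables, 1 for each library, and 8 of the 10 were listed in all 4, out of 9271 transcripts listed in any of them. PLK1 and BUB1B were not listed in any table and were not analysed here. Ribosome profiling counts the mRNA fragments that ribosomes shield from nuclease (ribosome protected fragments, RPFs). The cells were HEK293T, a human embryonic kidney line that carries the large T antigen of a polyomavirus. Untreated cells (0 µg/mL, replicates A and B) were compared with cells given G418 at 500 µg/mL for 24 hr (replicates A and B). G418 (geneticin) is an aminoglycoside antibiotic. It acts on ribosomal RNA where codons are decoded and lets a near-cognate tRNA be accepted at a stop codon. Both conditions share the line, the culture medium and the protocol, and no synchronization of the cell cycle is named for either.

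RPFs on mRNAs numbered 6082600 and 2440204 in untreated libraries A and B, and 5677910 and 4763858 in G418 libraries A and B. Values in untreated replicate B therefore carry the widest counting error. The neurofilament genes NEFL and NEFM and the intermediate filament gene VIM, known in this line, were listed in all 4 tables, with VIM at 638.7 and 658.1 RPKM in untreated and 558.3 and 533.1 RPKM in G418 libraries, and so were KRT8 and KRT18. PAX2, a kidney factor, was listed in the G418 tables only, at 1.04 and 1.36 RPKM (10 and 12 reads). These values are close to the lowest density listed in each table. Its absence from the untreated tables is therefore no evidence of a difference between conditions. Of 7 markers of blood, endothelium, liver and fibroblasts, COL1A1 alone was listed, at 3.59 to 5.54 RPKM. This is above KRT8, which was at 1.45 to 2.13 RPKM. PTPRC, HBB, PECAM1, ALB, COL1A2 and DCN were in no table. PLK1 and BUB1B were in none either, so a gene in no table cannot be taken as absent from the cells. RPKM is a density, the reads scaled to library size and divided by the length of the region in kilobases.

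As background, entry into mitosis depends on CDK1, a kinase that is active only when bound to a B-type cyclin, CCNB1 or CCNB2. AURKA works at centrosomes and spindle poles, while AURKB sits with BIRC5 (survivin) in the chromosomal passenger complex, which corrects faulty attachments of chromosomes to the spindle. BUB1 is a kinase of the spindle checkpoint at kinetochores. The checkpoint holds back CDC20, the activator of the anaphase-promoting complex, the ubiquitin ligase that marks cyclin B for destruction and so lets cells leave mitosis. These proteins are made mostly in G2 and M phase, so that their levels in a growing culture depend on how many cells are in those phases. In bulk RPFs, fewer mitotic cells and fewer RPFs per cell cannot be told apart, and mRNA level cannot be told apart from translation of each mRNA.

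The stop codons are shown first because readthrough depends on them. For each gene the normal termination codon (NTC) of the transcript listed in the tables is printed in capitals, with the 15 nt before it and the 12 nt after it in lower case, 5′ to 3′ on the mRNA strand. The sequences were read from GENCODE version 44 transcripts, whose coordinates are those of hg38, the build of the tables. CDS length, the NTC with its next nucleotide, and the distance to the first in-frame 3′UTR termination codon (3′TC) matched the deposited values for all 8 listed transcripts. The 3′UTR of BUB1 did not match beyond that point, with 436 nt and 9 in-frame 3′TCs in GENCODE version 44 against 130 nt and 3 in the tables.
AURKA: gcuagcaaacagucuUAGgaaucgugcagg
AURKB: cuucaaucugucgccUGAuggucccuguca
BIRC5: cccuuagcaaugucuUAGgaaaggagauca
BUB1: aagcguucacgaaaaUAAaauuuggauaua
CCNB1: gcuguggcaaaggugUAAcuuguaaacuug
CCNB2: cugauaggaagguccUAGgcugccguggcc
CDC20: caccaaggcauccgcUGAagaccaacccau
CDK1: cagauuaagaagaugUAGcuuucugacaaa

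AURKA, BIRC5 and CCNB2 share the same NTC and next nucleotide, UAGG, and CDK1 has UAGC. BUB1 and CCNB1 end in UAA, followed by A and C. AURKB and CDC20 end in UGA, followed by U and A. The stop codons lie at chr20:56370158-56370160 on the minus strand (AURKA), chr17:8204871-8204873 on the minus strand (AURKB), chr17:78223655-78223657 on the plus strand (BIRC5), chr2:110637964-110637966 on the minus strand (BUB1), chr5:69177629-69177631 on the plus strand (CCNB1), chr15:59124875-59124877 on the plus strand (CCNB2), chr1:43363127-43363129 on the plus strand (CDC20) and chr10:60793973-60793975 on the plus strand (CDK1).

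A ribosome that reads through the NTC would add 7 codons to BUB1 before the first in-frame 3′TC, 8 to AURKA and to the listed BIRC5 transcript, 12 to CDC20, 18 to CCNB2, 39 to CCNB1 and 41 to CDK1. AURKB has no in-frame 3′TC in its 3′UTR of 137 nt. The number of in-frame 3′TCs in the 3′UTR, as the tables list it, was 2 for CDC20, 3 for BUB1, 4 for CCNB2, 11 for CCNB1, 15 for AURKA, 17 for BIRC5 and 21 for CDK1.

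The listed BIRC5 transcript (ENST00000374948.6) is not the MANE Select transcript, the agreed reference form of a gene, and its NTC differs from that of the reference form. The MANE Select NTC is at chr17:78223552-78223554, 103 nt upstream in another reading frame, and the next in-frame 3′TC of that form lies 321 nt after it. It is printed because most of the 3′UTR reads of this gene, described later, cannot be assigned to one of these stop codons.
BIRC5, MANE Select: cuggcugccauggauUGAggccucuggccg

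The remaining 7 listed transcripts end at the MANE Select stop codon. PLK1, the polo-like kinase that acts at centrosomes and kinetochores, has a further in-frame stop codon directly after its NTC, with 0 nt between, at chr16:23690061-23690063 on the plus strand. It is printed because this tandem stop sets it apart from the listed members.
PLK1: cgucucaaggccuccUAAuagcugcccucc

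The shortest distance in any table from the NTC to the end of the first 3′TC was 18 nt, and for PLK1 the annotated 3′TC directly follows the NTC. For its readthrough score the study set a minimum number of codons between these stop codons, and PLK1 has 0. Whether this rule left PLK1 out was not tested. BUB1B, a checkpoint protein that binds CDC20, has its first in-frame 3′TC 81 nt after its UGA codon, and the reason why it is not listed was not tested.

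RPFs in the coding sequences (CDS) of the mitotic genes were much alike with and without G418. No member passed an adjusted p-value of 0.05 in edgeR's quasi-likelihood test of CDS counts, in which 5.31% of 8494 transcripts were higher in G418 and 3.21% were lower. Of the 8 members, 7 had a fitted log2 fold change below 0 (4 with library totals in place of TMM factors, which moved the median of all transcripts to 0.11), and the median was -0.11, against 0.002 for all transcripts tested. Unadjusted p-values were under 0.05 for 2 members, AURKB and CDC20, and DESeq2 likewise called 0 of 8, with 2 under 0.05 before adjustment. The members together held 0.298% and 0.289% of CDS reads in untreated libraries A and B and 0.294% and 0.288% in G418 libraries A and B. These shares were taken over 6504 transcripts that held the study's minimum of mRNA reads in each condition.

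The absence of calls depended on the untreated libraries. Without untreated replicate B, the less deep of the pair, edgeR called 5 members lower (AURKB, BUB1, CCNB1, CDC20 and CDK1), with log2 fold changes of -0.15 to -0.24, and 1092 of 8531 transcripts lower. Without untreated replicate A it called 2 members lower, AURKB (-0.26) and CDC20 (-0.29), and 803 transcripts lower. Without G418 replicate A or B it called none. In these fits the lone library of a condition is assumed to vary like the others.

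CCNB1, the major mitotic cyclin, had the highest CDS density, 442.0 and 375.7 RPKM in untreated and 416.8 and 374.2 RPKM in G418 libraries A and B. The ranges of the conditions overlapped, and replicate A was higher than replicate B in both. The fitted log2 fold change was -0.12 (SE 0.08, edgeR adjusted p = 0.395).

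CDK1, its kinase partner, was at 344.7 and 275.95 RPKM in untreated and 339.1 and 291.1 RPKM in G418 libraries A and B. The G418 values lay between the untreated ones, with a log2 fold change of -0.06 (SE 0.09, edgeR adjusted p = 0.773). Both genes were above 95.1% of the transcripts listed in each library.

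CCNB2, the second B-type cyclin, was at 117.7 and 101.4 RPKM in untreated and 120.3 and 109.6 RPKM in G418 libraries A and B. Its log2 fold change of -0.01 (SE 0.09, edgeR adjusted p = 0.972) was the smallest in size among the members. The density of CCNB2 was therefore below that of CCNB1 in each of the 4 libraries.

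BIRC5 was the member with a fitted value above 0 (0.04, SE 0.10, edgeR adjusted p = 0.865). Its densities were 298.3 and 323.3 RPKM in untreated and 344.7 and 322.4 RPKM in G418 libraries A and B, and the conditions overlapped. They were computed over the CDS of the listed transcript, which counts part of the MANE Select 3′UTR as coding.

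AURKB, the kinase of the passenger complex, was at 166.1 and 154.7 RPKM in untreated and 153.4 and 131.2 RPKM in G418 libraries A and B. Both G418 values were below both untreated values, with a small gap between untreated replicate B and G418 replicate A. The log2 fold change of -0.25 (SE 0.09) was the lowest of the members and had an unadjusted p of 0.0128 and an adjusted p of 0.0981 in edgeR.

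CDC20 was at 197.2 and 199.99 RPKM in untreated and 192.4 and 167.6 RPKM in G418 libraries A and B, also without overlap. Its log2 fold change was -0.21 (SE 0.09), with an unadjusted p of 0.0208 and an adjusted p of 0.129 in edgeR. An exact permutation test of 2 libraries against 2 cannot give a two-sided p below 0.3333, so it cannot pass 0.05 for AURKB or CDC20.

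AURKA, the spindle pole kinase, was at 98.97 and 84.2 RPKM in untreated and 96.6 and 84.8 RPKM in G418 libraries A and B, the G418 values again lying between the untreated ones. Its log2 fold change was -0.09 (SE 0.10, edgeR adjusted p = 0.623). BUB1 was the lowest member, at 65.97 and 55.7 RPKM in untreated and 56.4 and 57.4 RPKM in G418 libraries, with a log2 fold change of -0.17 (SE 0.09, edgeR adjusted p = 0.271). Among the 8 members the density thus fell in the order CCNB1, BIRC5, CDK1, CDC20, AURKB, CCNB2, AURKA and BUB1 by G418 means. BIRC5 and CDK1 overlapped over the 4 libraries. The other neighbours did not, but at their nearest values CDC20 and AURKB were only 1.55 RPKM apart and CCNB2 and AURKA 2.43 RPKM apart.

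**Figure D1:**
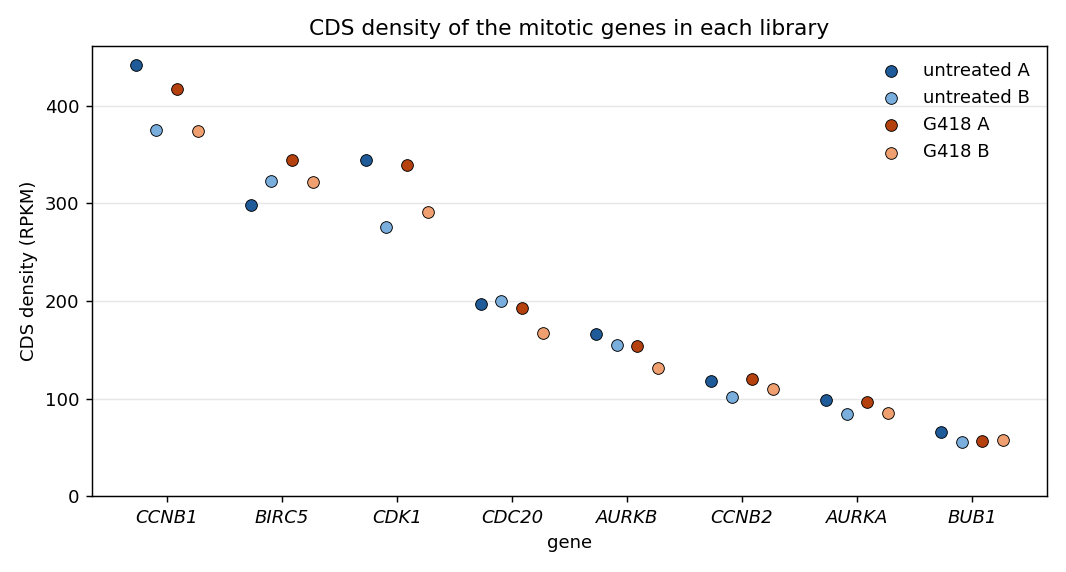
CDS density in RPKM (vertical axis, from 0) of the 8 listed genes (horizontal axis), with 1 point for each library in blue (untreated) and orange (G418). The 4 points of a gene lie close together, and in AURKB and CDC20 both G418 points are below both untreated points.

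The neighbours of these genes in mitosis were described by 7 lists, which name 103 genes, of which 87 were listed and tested. In the edgeR test of CDS counts 8 of the 87 were higher in G418 (background 5.31%) and 4 were lower (background 3.21%), and their median log2 fold change was -0.05. Among other mitotic kinases, CDK1 regulators and cyclins, 0 of 11 were higher and 1 was lower. This was WEE1, the kinase that holds CDK1 inactive (log2 fold change -0.38, SE 0.12, edgeR adjusted p = 0.039), at 34.3 and 31.9 RPKM in untreated and 24.8 and 28.8 RPKM in G418 libraries A and B. Among passenger complex and checkpoint partners, 1 of 10 was higher and 0 were lower. It was SGO1, the shugoshin that guards centromeric cohesion (0.54, SE 0.15, edgeR adjusted p = 0.0177), which went from 26.3 and 18.8 RPKM to 37.4 and 34.4 RPKM. WEE1 did not pass in edgeR with library totals in place of TMM factors (adjusted p = 0.137). Its log2 fold change was -0.22 without G418 replicate A and -0.54 without G418 replicate B.

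Of 17 genes for the anaphase-promoting complex with its E2 enzymes and inhibitors, 2 were higher and 3 were lower in edgeR, and DESeq2 called 0 in either direction. ANAPC16, a subunit, rose by 0.69 on the log2 scale (SE 0.15, edgeR adjusted p = 0.00388), from 53.8 and 47.1 RPKM to 93.8 and 79.1 RPKM. The cullin subunit ANAPC2 had a log2 fold change of -0.43 (SE 0.13, edgeR adjusted p = 0.0279), and ESPL1, separase, which cuts cohesin at anaphase, had one of -0.36 (SE 0.10, edgeR adjusted p = 0.0246). With library totals in place of TMM factors ANAPC2 (adjusted p = 0.0897) and ESPL1 (0.104) no longer passed in edgeR.

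Of 18 kinetochore, spindle and motor genes 1 was higher and 0 were lower, namely CENPA, the centromeric histone (0.61, SE 0.19, edgeR adjusted p = 0.0372). CENPA was no longer called without untreated replicate A (0.52). None of 12 cohesin and condensin genes was called by edgeR, with 2 under 0.05 before adjustment, and DESeq2 called 0. Of 7 transcription factors of the G2/M programme 2 were higher and 0 were lower. MYBL2, a factor of the complex that switches on mitotic genes, was at 20.7 and 22.98 RPKM in untreated and 36.4 and 34.8 RPKM in G418 libraries (0.66, SE 0.11, edgeR adjusted p = 0.000292). E2F4, mostly a repressor of cell cycle genes, was also higher (0.61, SE 0.14, edgeR adjusted p = 0.00584).

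Of 12 genes of G1 and S phase 2 were higher and 0 were lower. CCNE1, the cyclin that drives entry into S phase, was at 9.71 and 9.21 RPKM in untreated and 17.8 and 18.7 RPKM in G418 libraries (0.88, SE 0.17, edgeR adjusted p = 0.000779). CDK4, the G1 kinase, was at 137.3 and 131.1 RPKM in untreated and 229.2 and 212.3 RPKM in G418 libraries (0.65, SE 0.09, edgeR adjusted p = 3.81e-05). Of the 10 neighbours named here, DESeq2 called CCNE1, CDK4 and MYBL2 and not the other 7. CDK4 alone of the 10 was called by edgeR both without G418 replicate A and without G418 replicate B.

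Downstream of the stop codons the conditions differed. Readthrough was measured by the ribosome readthrough score (RRTS). It sets the RPF density from 6 nt past the NTC to the first in-frame 3′TC against the density of the CDS. The length used takes in that 3′TC, and reads called before the first 3′TC are those of this region. Summed over the 8 members, RRTS was 0.0175 and 0.0110 in untreated libraries A and B and 0.182 and 0.191 in G418 libraries A and B. Over all 6504 transcripts it was 0.0199 and 0.0181 in untreated and 0.158 and 0.151 in G418 libraries. The sum over the members rested on 21, 5, 199 and 168 reads in untreated A, untreated B, G418 A and G418 B, of which AURKB gave 107 of those in G418. Without AURKB, a choice made after seeing the data, the members' RRTS in G418 was 0.149 and 0.161.

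All 5 members with at least 10 reads before the first 3′TC had more of them per CDS read in G418, by edgeR with CDS reads as offset. Among all 2827 transcripts tested 82.6% were higher and 0.0707% were lower, so the count is close to what most transcripts showed. The minimum of 10 reads is taken over both conditions, and AURKB, BIRC5, CCNB1 and CDC20 passed it through their G418 reads and CDK1 alone reached it in untreated cells, so that the count is a description and no p-value of this fit is given in support of a rise in those 4. The median fitted log2 fold change was 3.21 for the 5 members and 3.18 for all tested, and without untreated replicate A these became 5.69 and 4.96. With transcripts that had no such read in untreated cells set at the bound that 3 reads per library allow, the medians were 2.90 and 2.44. Intervals and bounds given here cover counting error only.

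AURKB had the highest RRTS of the members in G418. It had 0 and 0 reads before the end of its 3′UTR in untreated libraries A and B, which held 1486 and 603 CDS reads, and 60 and 47 in G418 libraries A and B, which held 1289 and 1008. RRTS was 0.373 in G418 replicate A and 0.374 in replicate B, while 3 reads would have given 0.0162 and 0.0399 in the untreated libraries. RRTS was thus at least 13.3-fold higher in G418. The fitted log2 fold change (8.68) depends on a prior count and is no bound. The 3′UTR is 137 nt long and is listed as 131 nt, with 6 nt after the NTC left out. The density was taken over 125 nt, a further 6 nt fewer, and over 131 nt the pooled RRTS would be 0.356.

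CDK1 had 11 and 4 reads in untreated and 78 and 61 in G418 libraries A and B. RRTS was 0.0298 and 0.0311 in untreated and 0.229 and 0.228 in G418 libraries, so that replicates of a condition were nearly alike and the conditions were far apart. The pooled ratio was 7.58 (95% exact interval 4.44 to 13.9) and the fitted log2 fold change was 2.90 (SE 0.33, edgeR adjusted p = 6.40e-17).

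CCNB1 had 7 and 0 reads in untreated and 39 and 39 in G418 libraries A and B. Its RRTS was 0.0156 and 0 in untreated and 0.0979 and 0.119 in G418 libraries, without overlap. The pooled ratio was 9.47 (95% exact interval 4.38 to 24.3), with a log2 fold change of 3.21 (SE 0.46). Without untreated replicate A, which held all the untreated reads, the fitted value was 8.01 and is no bound. Although CCNB1 was the member with the highest CDS density, its RRTS in G418 was among the lowest.

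CDC20 had 2 and 0 reads in untreated and 8 and 7 in G418 libraries, and its RRTS was 0.0344 and 0 against 0.150 and 0.165. The pooled ratio was 6.57, with a wide 95% exact interval of 1.53 to 59.2. Its fitted log2 fold change was 2.58 (SE 0.96), or 5.69 without untreated replicate A, which held both untreated reads. CDC20 reached the minimum of reads through its G418 reads, so its call in this fit is a description. DESeq2 did not call it (2.86, adjusted p = 0.110). The edgeR call was lost without G418 replicate A (2.65) and without G418 replicate B (2.52).

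BIRC5 had 0 and 0 reads in untreated and 7 and 8 in G418 libraries before the first 3′TC of the listed transcript, with RRTS of 0.115 and 0.154 in G418. This is at least 1.61-fold above the 3 reads per library allowed in untreated cells. BIRC5 entered the edgeR fit through G418 reads alone, so its call there is a description, and it was lost without G418 replicate B.

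The 3 members with fewer than 10 reads were left out of this fit. CCNB2 had 0 and 0 reads in untreated and 3 and 4 in G418 libraries, with RRTS of 0.0583 and 0.0933 in G418. AURKA had 0 and 0 against 2 and 2 reads, with RRTS of 0.118 and 0.146 in G418, below the 3 reads taken as the floor. BUB1 had 1 and 1 against 2 and 0 reads, and its pooled ratio of 0.882 had a 95% exact interval of 0.0639 to 12.2, so no difference was detectable at this depth. Over the whole 3′UTR AURKA had 1 and 0 reads in untreated and 7 and 7 in G418 libraries, which is a description, since few of them were in untreated cells.

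**Figure D2:**
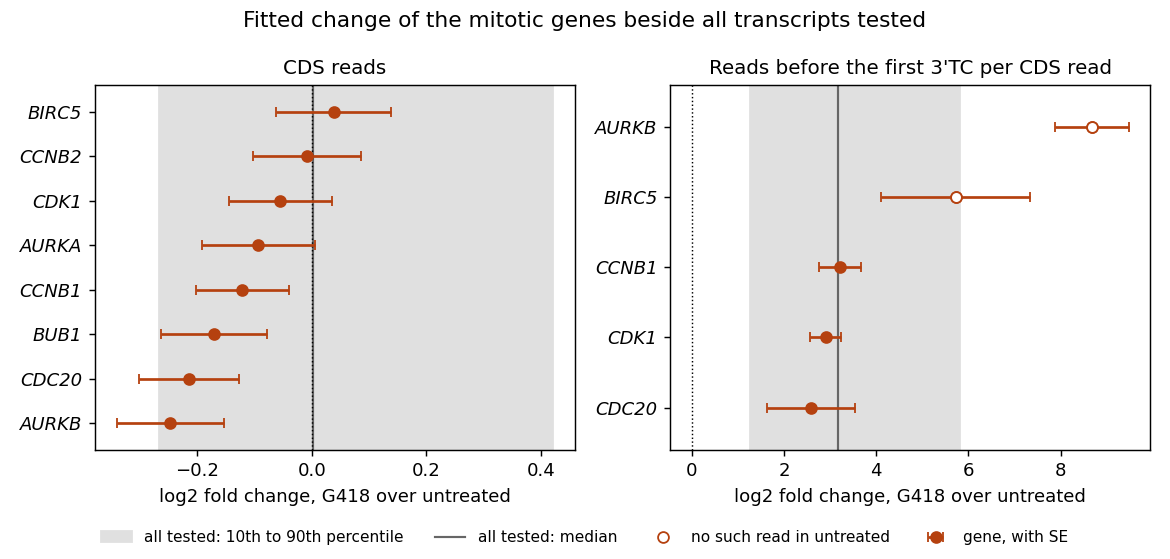
Fitted log2 fold change with its SE (horizontal axis) of CDS reads for 8 genes (left) and of reads before the first 3′TC per CDS read for 5 genes (right), over the 10th to 90th percentile (grey band) and the median (line) of all transcripts tested. Open points had no such read in untreated cells, so their fitted size is no bound. On the left 7 of 8 genes sit below 0 with TMM factors (4 of 8 with library totals), and on the right CDK1, CCNB1 and CDC20 sit near the median of all transcripts.

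**Figure D3:**
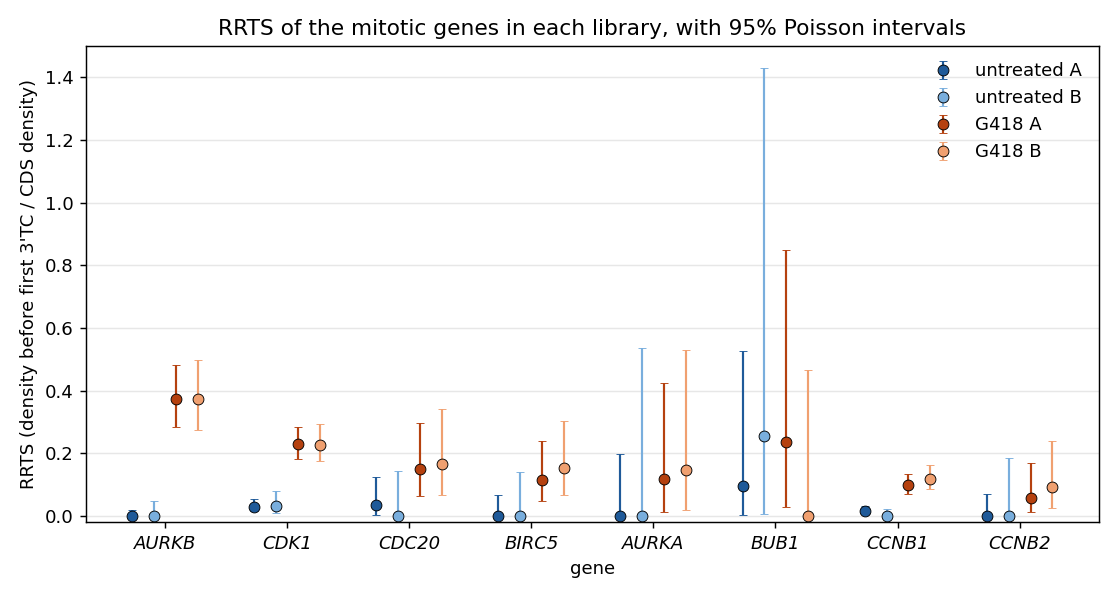
RRTS (vertical axis) of 8 genes (horizontal axis) in each library with 95% Poisson intervals from read counts. The intervals of AURKB, CDK1 and CCNB1 in G418 lie apart from those in untreated cells, while those of AURKA and BUB1 are wide and overlap between conditions.

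In G418 the pooled RRTS fell in the order AURKB (0.373, 95% Poisson interval 0.306 to 0.451), CDK1 (0.228, 0.192 to 0.269), CDC20 (0.157, 0.0878 to 0.259), BIRC5 (0.133, 0.0746 to 0.2197), AURKA (0.130, 0.0355 to 0.334), BUB1 (0.122, 0.0147 to 0.439), CCNB1 (0.107, 0.0850 to 0.134) and CCNB2 (0.0742, 0.0298 to 0.153). The intervals of AURKB and CDK1 did not overlap, and neither did those of CDK1 and CCNB1. All other neighbours in the order overlapped.

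The members were set beside transcripts that share their NTC and its next nucleotide, with no test. AURKB, with UGAU, was above 56.6% of 440 such transcripts in pooled RRTS (group median 0.330). CDK1, with UAGC, was near the middle of its 410 transcripts (44.1st percentile, median 0.259). BIRC5 was likewise near the middle (42.1) of 399 with UAGG (median 0.159). By point value AURKA was at the 41.1st percentile of the UAGG group. BUB1 was at the 50.7th percentile of 698 transcripts with UAAA (median 0.1201). AURKA and BUB1 rest on 4 and 2 reads in G418. Their Poisson intervals, 0.0355 to 0.334 and 0.0147 to 0.439, span the quartiles of their groups, so neither can be placed within its group.

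CCNB1 was at the 23.2nd percentile of 358 transcripts with UAAC, whose median of 0.223 was above its 95% interval. CDC20 was at the 26.7th percentile of 901 transcripts with UGAA, and their median of 0.277 was also above its interval. CCNB2, at the 24.6th percentile of the UAGG group, had a group median of 0.159, just above its interval.

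**Figure D4:**
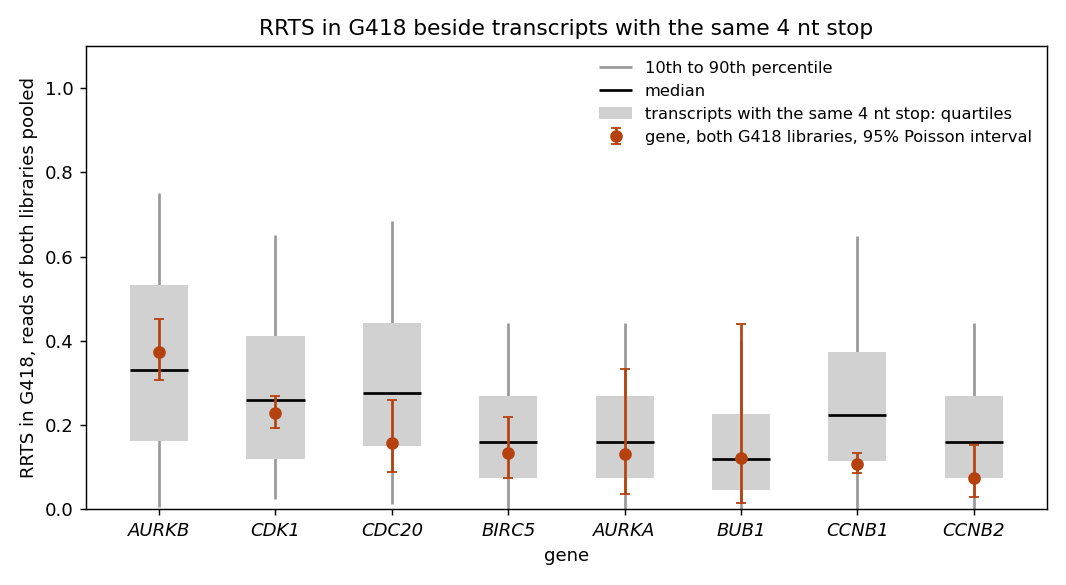
Pooled RRTS in G418 (vertical axis) of 8 genes (points with 95% Poisson intervals) over the quartiles (grey boxes), median (black line) and 10th to 90th percentile (grey line) of transcripts with the same NTC and next nucleotide. CCNB1 and CDC20 lie well below the median of their groups and AURKB slightly above. The intervals of AURKA and BUB1 span the quartiles of their groups, and BIRC5 is placed by the NTC of the listed transcript.

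Reads past the first 3′TC were compared with those before it. In G418, 98.7% of the 79 reads in the 3′UTR of CCNB1 and 93.9% of the 148 in that of CDK1 lay before the first in-frame 3′TC, although their 3′UTRs extend for 614 and 877 nt. CDC20 had 88.2% of 17 and CCNB2 77.8% of 9 reads there. AURKB has no in-frame 3′TC, and all 107 of its 3′UTR reads in G418 were counted.

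AURKA and BIRC5 differed from this pattern. In both, the region counted before the first 3′TC was 21 nt, in 3′UTRs of 768 and 1979 nt. These 21 nt run to the end of the 3′TC, 27 nt past the NTC, with 6 nt left out, and so take in the 3′TC itself. That region was 120 nt in CDK1 and 114 nt in CCNB1, and the shares were not scaled to length. AURKA had 2 reads before and 5 after the first 3′TC in each G418 library, against 0 before and 1 after in untreated replicate A and none in replicate B. BIRC5 had 7 and 8 reads before and 48 and 38 after the first 3′TC in G418 libraries A and B, against 0 and 0 before and 12 and 3 after in untreated libraries, so that 14.9% of its G418 reads lay before it. Over the whole 3′UTR, BIRC5 had 1.18 and 0.626 reads per 100 CDS reads in untreated and 4.9955 and 4.883 in G418 libraries (log2 fold change 2.29, SE 0.36, edgeR adjusted p = 1.18e-09). The next in-frame 3′TC of the MANE Select form is at chr17:78223876-78223878, and the first 3′TC of the listed transcript is at chr17:78223682-78223684, upstream of it. Which stop codon the reads follow was not tested, since the tables give no positions of reads.

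**Figure D5:**
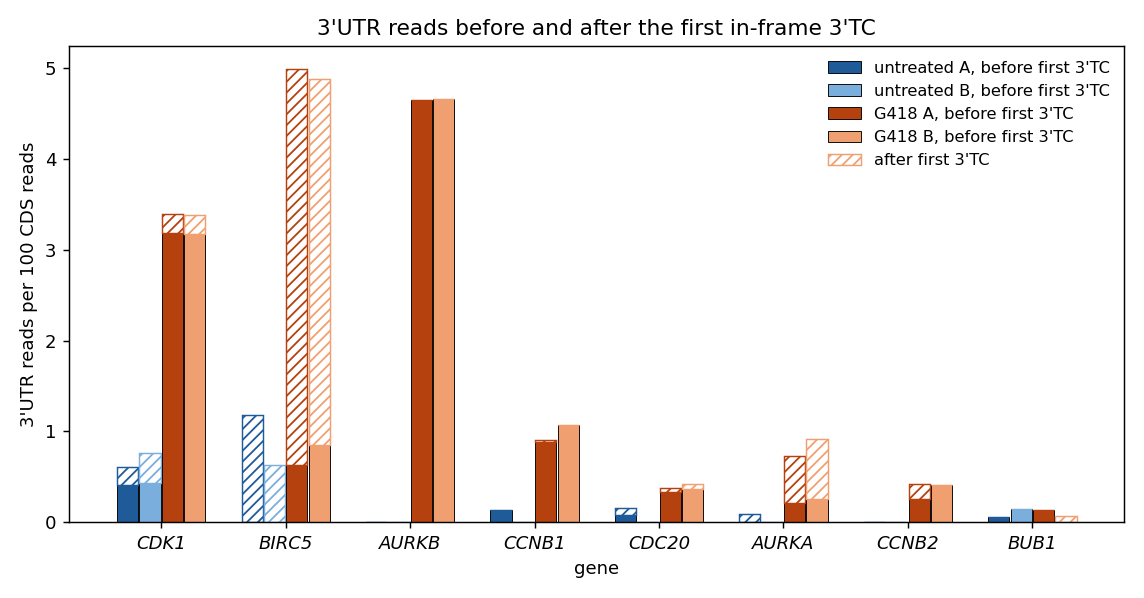
3′UTR reads per 100 CDS reads (vertical axis, from 0) of 8 genes in each library, divided at the first in-frame 3′TC into those before it (filled) and those after it (hatched). Bars are taller in G418 for all genes but BUB1, and in BIRC5 and AURKA most of the bar is hatched.

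The same lists of neighbours were examined for readthrough. Of 55 genes with enough reads, 49 were higher and 0 were lower (background 82.6% and 0.0707%), and the median fitted log2 fold change was 3.47, or 2.76 with genes that had no untreated read at their bound. The minimum of 10 reads over both conditions holds here too, so these counts are a description. All were higher among 8 mitotic kinases, regulators of CDK1 and cyclins, 10 cohesin and condensin genes and 5 genes of G1 and S phase. The counts were 5 of 6 for passenger complex and checkpoint partners, 10 of 11 for the anaphase-promoting complex, 9 of 11 for kinetochore and spindle genes and 2 of 4 for transcription factors.

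INCENP, the scaffold of the passenger complex that binds AURKB and BIRC5, had 0 and 0 reads before its first 3′TC in untreated and 23 and 16 in G418 libraries. Its RRTS of 0.282 and 0.227 was at least 4.55-fold higher in G418. CDK6, a G1 kinase, had 0 and 0 reads against 30 and 11, and was at least 4.08-fold higher in G418. CKS1B, a small subunit that binds CDK1, had 0 and 0 against 19 and 15 reads, and was at least 3.20-fold higher in G418. These had the largest fitted values in the lists and reached the minimum of 10 reads through G418 alone, so their values are given with no test.

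At the other end, CDC16, a scaffold subunit of the anaphase-promoting complex, had 2 and 2 reads in untreated and 5 and 1 in G418 libraries (log2 fold change 0.14, SE 1.02, edgeR adjusted p = 0.895). Its pooled ratio of 1.11 had a 95% exact interval of 0.263 to 5.34. E2F4 had only 6 and 3 reads in untreated and 17 and 12 in G418 libraries A and B. From these its RRTS was 0.458 and 0.556 in untreated and 0.8498 and 0.719 in G418 libraries (0.69, SE 0.60, edgeR adjusted p = 0.268). The untreated values are thus high but poorly determined. Over the whole 3′UTR E2F4 was higher in G418 (1.76, edgeR adjusted p = 0.000282). MYBL2 had 1 and 1 against 6 and 3 reads (pooled ratio 2.15, 95% exact interval 0.446 to 20.5, edgeR adjusted p = 0.372).

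Upstream of the CDS, 5′UTR reads per CDS read were tested for 6 members with at least 20 such reads, and 0 were called by edgeR, with none under an unadjusted p of 0.05. In all 4254 transcripts tested 0.0235% were higher and 1.39% were lower in G418. All 6 members had a fitted log2 fold change below 0, from -0.78 (AURKB) to -0.21 (CCNB2), with a median of -0.39 against -0.17 for all transcripts. The medians were -0.36 and -0.31 without untreated replicate A and -0.34 and -0.057 without untreated replicate B, and AURKB was at -0.049 and CCNB2 at -0.082 without untreated replicate A. CCNB1, at -0.36 with all libraries, was at -0.73 without untreated replicate A and at -0.017 without untreated replicate B. Without untreated replicate A, CCNB1 and CDK1 (-0.51) were under an unadjusted p of 0.05 in edgeR and 0 members passed after adjustment. DESeq2 was not run on this measure.

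The 5′UTR levels differed widely between members. CDK1 had 9.25 and 11.9 reads in the 5′UTR per 100 CDS reads in untreated and 8.13 and 8.64 in G418 libraries A and B, both G418 values being below both untreated ones. CCNB2 had 7.77 and 6.75 against 6.13 and 6.65, and CCNB1 had 2.18 and 3.56 against 2.23 and 2.06. AURKB had 15 and 3 reads in untreated and 5 and 6 in G418 libraries, or 1.01 and 0.498 against 0.388 and 0.595 per 100 CDS reads, so that the conditions overlapped. Of the neighbours, 0 of 60 tested had more and 3 had fewer 5′UTR reads per CDS read, and these are named after their values were seen. They were ANAPC5, CDK4 and MYBL2 (edgeR adjusted p = 0.0193, 0.0081 and 0.0432), and all 3 were among those with more CDS reads.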

How the data were processed

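RPFs were measured in 4 libraries of HEK293T cells, 2 untreated and 2 treated with G418, each with a table of 1 transcript per gene. Per the submitters' processing notes CASAVA 1.8 and STAR were used, with hg38. By the study's methods, duplicates were collapsed by molecular identifier, noncoding RNA was removed, and multiply mapping reads kept a single alignment. The deposited counts are whole reads for each transcript and each of its regions, not normalized by the authors. The deposited RPM values are the same reads scaled to library size, the deposited RPKM densities are RPM per kilobase after nucleotides near start and stop codons were left out, and the deposited ratio is RRTS. The authors' 5′UTR density, a score, was not used, nor was the occupancy ratio of the whole 3′UTR.

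All deposited RPM values (100%) were whole multiples of 1 read within a tolerance of 0.01, and recovered reads equalled the deposited counts or exceeded them by 1. CDS counts as deposited were tested with edgeR (TMM, filterByExpr, Benjamini-Hochberg over all transcripts, threshold 0.05). Readthrough and 5′UTR tests used recovered reads offset by log(CDS reads + 0.5), at least 10 reads before the first 3′TC and the study's minimum of mRNA reads per condition, or at least 20 5′UTR reads and the same minimum of CDS reads, over transcripts in all 4 tables. Pooled RRTS sums the reads of both replicates, and its groups by stop codon hold transcripts with that minimum in both conditions. Lower bounds use 3 reads per library. Intervals are exact Poisson or conditional binomial, at 95%. Alternatives were DESeq2, the replicate block, each library left out, other scaling, filters and minimum reads, and the whole 3′UTR.

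The members and gene lists were chosen with earlier results of these data known. All members are described; of each list up to 3 genes are named, those with the largest CDS change among genes past the threshold and changed alike in both same-letter pairs, and for readthrough the 3 largest and 3 smallest values over all lists. The study calls the replicates biological. The scripts were tested on simulated data. Tests ran in edgeR 4.0.16 and DESeq2 1.42.0 under R 4.3.3, and the rest in Python 3.11.15 with scipy 1.17.1, pandas 2.3.3 and matplotlib 3.10.9.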

Additional observations from a re-analysis of the deposited data

How the results depend on the processing

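Over all transcripts, CDS counts gave 451 higher and 273 lower. These became 113 and 137 in DESeq2, 618 and 452 with the replicate block, 887 and 120 with library totals in place of TMM factors, and 452 and 289 with recovered reads. Leaving out 1 library gave 57 to 990 higher and 15 to 1092 lower, with 0 to 5 members lower. Library totals moved the median of all transcripts from 0.002 to 0.11 and that of the members from -0.11 to -0.004. The share of higher among called transcripts went from 62.3% to 88.1%, and was 45.2% in DESeq2. Under library totals AURKA (0.010), CDK1 (0.048) and CCNB2 (0.096) changed sign. With 1 library left out CDK1 ranged from -0.15 to 0.056, CCNB2 from -0.051 to 0.045 and BIRC5 from -0.091 to 0.14, and no value of opposite sign passed the threshold.

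Readthrough gave 2336 transcripts higher and 2 lower. DESeq2 gave 1408 and 1, a minimum of 20 reads 1536 of 1662 higher with 3 of 3 members, a minimum of 5 reads 2701 of 4076 with 6 of 6 members (CCNB2 added, adjusted p = 0.0324), and the whole 3′UTR 2871 of 4086 higher with 6 of 6 members (AURKA added, adjusted p = 0.0073) and 10 lower. CCNB2 and AURKA reached these minimums through G418 reads, so these counts are a description. Without 1 library, 1496 to 2265 were higher and 1 to 2 lower, with 3 to 5 members higher. CDC16 turned to -0.26 in DESeq2 and ranged from -1.17 to 0.75 without 1 library. The 5′UTR counts of 1 higher and 59 lower became 6 and 98 with the replicate block, and 0 to 29 and 16 to 296 without 1 library. Other choices were made after seeing the data. Over 131 nt in place of 125 nt, AURKB had a pooled RRTS of 0.356 in G418. The RRTS summed over the members, as the mean of the G418 libraries, went from 0.187 to 0.155 without AURKB. The cause of these shifts was not tested.

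The labels do not say what a shared letter marks. Deviations of same-letter libraries correlated at 0.197 over 7019 transcripts for CDS counts and 0.00459 over 2827 for readthrough. Under the block AURKB had an adjusted p of 0.0524 for CDS reads, and among the members the call of CDC20 in readthrough alone was lost (2.59, adjusted p = 0.0526). Depth limits AURKA, BUB1 and CCNB2, which had at most 4 reads before the first 3′TC in any library.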
